A study of Mus musculus with 3 samples.

Results

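The cells described here are the few that carried an epithelial signature in a sort meant for mesoderm. They were chosen from the deposited count matrix as cells with at least 3 unique molecular identifiers (UMIs, each standing for 1 captured transcript) of Epcam and at least 1 of Cdh1, and under 2 UMIs of the neural genes Sox1, Pax6, Fabp7 and Hes5 together. This rule took 78 of 14777 cells, a share of 0.528%. Of these, 40 were among the 9852 cells of control embryos (0.406%) and 38 among the 4925 cells of mutant embryos (0.772%). These shares pool unequal samples and stages, and shares by sample are given below. Epcam (GRCm38, 17:87635979-87651129, plus strand) encodes an adhesion protein of epithelial cells, and Cdh1 (8:106603351-106670246, plus strand) encodes E-cadherin, the cadherin of epithelial junctions.

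The embryos were C57BL/6 mice that carried Mesp1-Cre, which is driven by the Mesp1 gene of nascent mesoderm, and Ai9, a reporter that turns red fluorescent once Cre has acted. Controls carried 1 floxed and 1 wild-type allele of Wls (Wls fl/+) and mutants carried floxed alleles on both chromosomes (Wls fl/fl), so that Cre, the reporter and at least 1 floxed allele were shared by both groups. Cells were tagged with MULTI-seq lipid barcodes and pooled, and red cells were sorted and captured with the 10x Chromium v3 kit, and the pools were sequenced in 3 runs. The unit of comparison is the barcode sample, all cells with the same run, barcode, stage and genotype in the authors' per-cell table. Whether a barcode was 1 embryo or several is not given in the sources used here, so that p-values measure the spread between barcode samples only. At least 1 sample, Bar29, held more than 1 embryo by its sex genes, as given below.

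There were 3 control and 3 mutant samples at E8.0, 2 control and 1 mutant at E8.5, and 6 of each genotype at E9.5, beside 1 control sample labelled E7.5. E8.0 lay in run 1 alone, E8.5 in run 2 alone and E9.5 in all 3 runs. Epcam/Cdh1 cells were present in 17 of the 22 samples, in 11 of them with at least 3 cells. Sex was not balanced: the 3 mutant samples of E8.0 were male by their Y-linked and Xist UMIs. The E8.0 controls were female in 2 samples and of both sexes in the third, Bar29. Of its cells outside the rule, 57.8% held Y-linked and 53.3% held Xist UMIs, so that Bar29 held more than 1 embryo. It is counted as 1 sample here. At E9.5 the controls with at least 3 Epcam/Cdh1 cells, Bar9 and Bar23, were female. Of the mutants with as many, Bar19 and Bar21 were male and Bar20 was female. No Epcam/Cdh1 cell shared its droplet barcode with another run, although 46 cells of the whole data did.

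Wls is the cargo receptor that carries lipid-modified Wnt proteins through the secretory pathway to the cell surface, so that a cell without it secretes little Wnt. Epithelia of the embryo at these stages include the gut tube, which forms from definitive endoderm joined by visceral endoderm, the visceral endoderm of the yolk sac, which takes up nutrients through cubilin and amnionless and secretes serum proteins, and the surface ectoderm, which forms epidermis and placodes under genes such as Trp63. Epithelial cells of the surface ectoderm are known sources of Wnt ligands, Wnt6 among them.

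An Epcam/Cdh1 cell held a median of 26370 UMIs (4699 to 102853) and 5903 genes, against 21726 UMIs and 5065 genes in the other cells. Epcam itself had a median of 11 UMIs per cell (3 to 49) and Cdh1 a median of 2 (1 to 14), values that the rule fixed. Just inside the rule lay 6 cells with 3 or 4 Epcam UMIs and 32 with exactly 1 Cdh1 UMI. Just outside it lay 6 cells with 2 Epcam UMIs, 55 that lacked only Cdh1 and 7 that failed only on neural UMIs. The 55 cells without Cdh1 held Cldn7, a tight junction claudin, at 148 CPM (UMIs of the gene per 1e6 UMIs of the same cells). Cldn7 stood at 315 CPM in the 78 cells and 1.66 CPM in all cells outside the rule. It was lower, at 49.5 CPM, in the 6 cells with 3 or 4 Epcam UMIs than in the 6 with 2 Epcam UMIs, at 339 CPM. The border of the rule thus did not follow Cldn7.

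The epithelial label was checked on genes that the rule did not use. Of 20 general epithelial markers, all 20 were detected in the 78 cells and 17 had a log2 ratio of at least 1 to the other cells of the same samples (5 CPM added to both sides, mean over the 11 samples with at least 3 Epcam/Cdh1 cells). Cldn6, a claudin of early epithelia, stood at 275 CPM and was found in 94.9% of the cells, against 1.19 CPM and 0.830% elsewhere. Spint2, an inhibitor of membrane serine proteases, stood at 203 against 8.77 CPM, and Rab25, a small GTPase of epithelial recycling endosomes, at 61.5 against 0.474 CPM. The simple keratins Krt8 (950 against 224 CPM) and Krt18 (1074.5 against 197 CPM) were also higher but were common outside, with Krt8 UMIs in 46.9% of the other cells. These ratios describe cells chosen on their own counts and were not tested.

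The 20 genes with the highest ratio were taken among genes found in at least 25% of the cells. They mixed this shared signature with genes that fewer of the cells carried. Cldn7, Spint2, Prss8, Slc2a3 and Emb were found in 69.2% of the cells or more. By contrast Rbp4, the plasma retinol carrier, reached 3665 CPM with UMIs in 43.6% of the cells, Ttr, the thyroid hormone carrier transthyretin, reached 2929 CPM in 32.1%, and Apoa1, the main protein of high-density lipoprotein, reached 1493 CPM in 25.6%. Spink1, a trypsin inhibitor, Afp, the fetal serum protein alpha-fetoprotein, and Tfap2a, a transcription factor of surface ectoderm and neural crest, were found in 43.6%, 32.1% and 46.2% of the cells.

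Clustering of the 78 cells on 1000 variable genes gave 6 clusters of 11 to 17 cells, of which 3 could be named from their markers. Cluster 6 (11 cells) was yolk sac visceral endoderm-like. All 6 yolk sac markers and 7 of 8 hepatic or secretory markers were raised in it against the other Epcam/Cdh1 cells, and Apoa2, Apoa1, Apoa4, Cubn, S100g and Amn led its genes. Each of its cells held between 148 and 669 UMIs of Apoa1, between 35 and 136 of Cubn, the receptor cubilin, and between 21 and 71 of Amn, which encodes amnionless. No cell of clusters 2, 3, 4 or 5 held a UMI of Apoa1 or Cubn. Over the 78 cells Apoa1 was found in 20 and Cubn in 15, so that some cells of cluster 1 held each gene too. Of the 8 hepatic or secretory markers, 6 were detected in at least 25% of the cells of cluster 1, with none raised there. Ttr stood at 10750 CPM in cluster 6. At E8.0 it held 6 control and 2 mutant cells, at E9.5 no control and 3 mutant cells.

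Cluster 3 (13 cells) was surface ectoderm-like, with 8 of 10 markers raised. Trp63, the master transcription factor of stratified epithelium, was found in 10 of its 13 cells, Krt5, a basal keratin, in 8, and Perp, a desmosomal protein, in 10. Tfap2a and Wnt6 were found in all 13. Cdx1 and Hoxb9, homeobox genes of the posterior body, were found in 6 cells each. Foxa2, the forkhead factor of endoderm and notochord, was found in none of the 13 cells. The cluster drew on 9 barcode samples, with 6 control and 7 mutant cells.

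Cluster 5 (12 cells) was gut endoderm-like, with 7 of 10 gut endoderm markers raised, Foxa1, Foxa2, Foxa3 and Sox17 among them, and Trh, the thyrotropin-releasing hormone gene of early foregut, at its head. Pax9, of pharyngeal endoderm, stood at 194 CPM in 8 of the 12 cells, and Apela, a secreted peptide of early endoderm, at 698 CPM in 8. Of the 6 midgut or hindgut markers 3 were raised as well, namely Cdx2, Hoxb9 and Hoxc9, beside 4 of 8 foregut or pharyngeal ones. Hoxa7, in 3 cells, and Cyp26a1, in 5, were among its leading genes, so that the markers do not place the cluster along the gut. T, the Brachyury gene of primitive streak and notochord, was also among its leading genes, in 4 cells. Of its cells, 10 were of E8.0 and 10 of the 12 were mutant, 5 of them from a single sample, Bar28.

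The other clusters stayed unnamed. Cluster 1 (17 cells) was led by Nepn, a gut endoderm marker found in 10 of its cells at up to 76 UMIs, and had Foxa1 in 13 and Shh, the Hedgehog ligand of gut epithelium, in 8. The globin genes Hba-x, Hbb-bh1 and Hba-a1 also stood among its 10 leading genes, with Hbb-y at up to 2466 UMIs in a cell. Cluster 2 (13 cells) was led by the cardiac muscle genes Myl4, Actc1 and Myl7, with Myl7 at up to 223 UMIs in a cell but a median of 1. It also held Foxe1 and Aldh1a3, and 8 of its cells came from run 3. Cluster 4 (12 cells) was led by Gbx2, with the transcription factor genes Tbx1, Pou3f1, Sox3, Pax2 and Six3 and the ligand gene Fgf15 among its 10 leading genes. Sox2 was found in 11 of its cells and Foxa2 in none. In it 3 of 10 surface ectoderm, 3 of 6 otic or placode, 3 of 7 nephric duct and 3 of 7 epiblast or primitive streak markers were raised, so that no single list named it. The rule capped the UMIs of Sox1, Pax6, Fabp7 and Hes5, the whole neural list, so that this list could not name any cluster. A neural identity of cluster 4 was thus not tested.

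**Figure D1:**
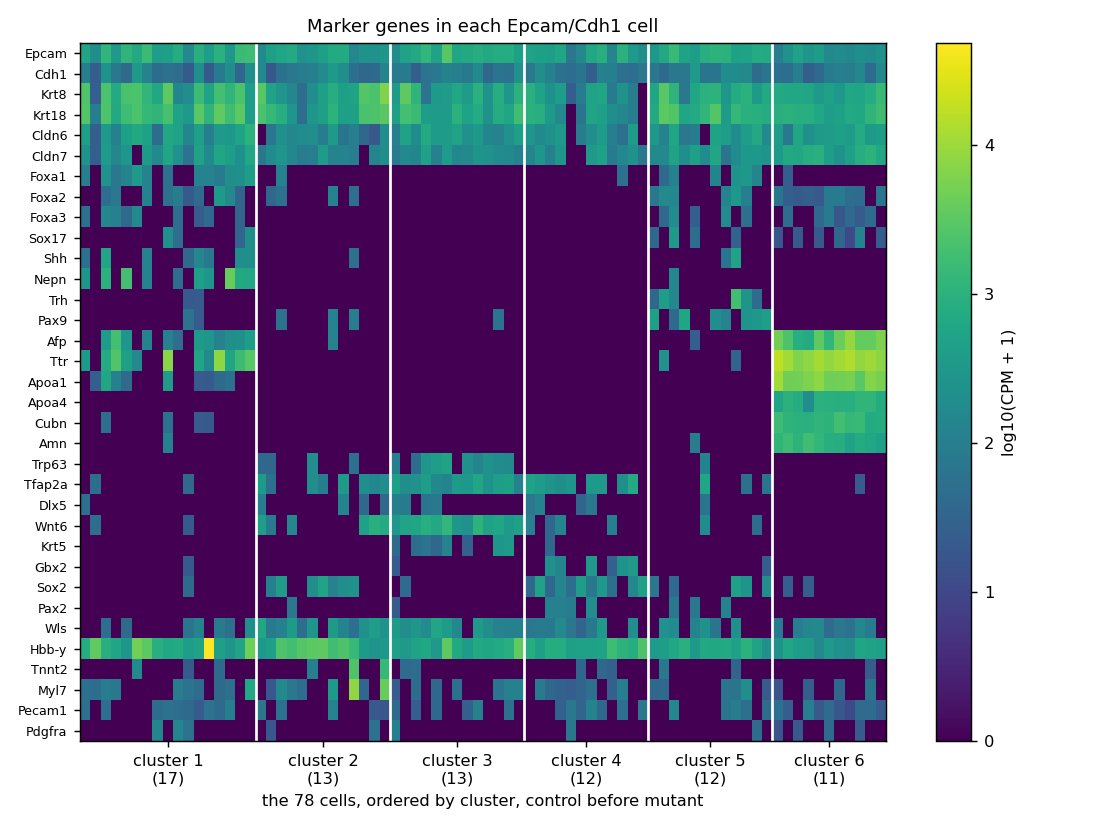
Each column is 1 of the 78 Epcam/Cdh1 cells, grouped by cluster with control before mutant, and each row a gene, with colour giving log10(CPM + 1). Serum protein genes fill the 11 cells of cluster 6, Trp63 marks cluster 3, and Wnt6 is raised in clusters 3 and 2. Foxa2 is found in 10 of 17 cells of cluster 1, 4 of 13 of cluster 2, 6 of 12 of cluster 5 and 10 of 11 of cluster 6. Single cells of clusters 1 and 2 are bright for Hbb-y or Myl7.

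Markers of other cell types were compared with the rest of the sort, as sums over all cells and as medians per cell. The 6 primitive blood genes summed to 4934 CPM, against 55424 CPM in the other cells, and ranged from 574 to 111752 CPM between cells. Hbb-y UMIs were found in all 78 cells and in 99.9% of the other cells. The median per cell was 1431 CPM in these cells and 1660 CPM in the others, so that the sums differed far more than the typical cells did. The cardiomyocyte list summed to 312 against 1412 CPM and the mesenchyme or mesoderm list, led by Twist1, to 111 against 669 CPM. The endothelial list summed to 36.7 against 83.5 CPM. Medians per cell were 50.7 against 69.2 CPM for the cardiomyocyte list, 41.9 against 608 CPM for the mesenchyme or mesoderm list and 24.2 against 29.8 CPM for the endothelial list. Other lists summed to more in these cells, among them epiblast or primitive streak (129 against 50.6 CPM), nephric duct (117 against 29.4 CPM, with 3 of 7 markers at a log2 ratio of at least 1), neural crest (23.9 against 7.98 CPM), notochord or node (23.9 against 6.998 CPM) and primordial germ cell (14.5 against 5.69 CPM). Some of these sums rest on few genes or cells. All 22 UMIs of Foxd3, a neural crest gene, were in 1 cell, Dnmt3b, a DNA methyltransferase, gave 86.3 of the 129 CPM, and only 1 of the 7 epiblast or primitive streak markers had a log2 ratio of at least 1, with a median of -0.13. By the thresholds set for mixed markers, 11 of the 78 cells carried blood, cardiac or endothelial UMIs, 8 of them endothelial, 2 blood and 2 cardiac, with overlap. The endothelial class was set by 3 or more UMIs of Pecam1 and Cdh5 together and rests almost wholly on Pecam1, an adhesion gene found in 43 of the 78 cells at 30.7 CPM against 32.5 CPM elsewhere. Cdh5, the cadherin of endothelium, had 1 UMI in 1 of these cells, and Kdr, the main VEGF receptor, stood at 3.42 against 34.7 CPM. The highest cardiac sums, 13347 and 5850 CPM, were in single E9.5 cells of control and mutant samples, and the highest blood sums, 111752 and 62717 CPM, in an E9.5 mutant and an E8.0 control cell. Scrublet called 1 of the 78 a doublet, but it called only 0.535% of all cells. Mesp1, whose promoter drives the Cre, had 1 UMI in 1 of the 78 cells, against UMIs in 0.789% of the other cells. A single cell, from the E9.5 mutant sample Bar10, held 7 UMIs of Dppa3, a germ cell gene, which no other Epcam/Cdh1 cell had.

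The sex genes of the cells were compared with those of their samples. In the 5 male mutant samples 24 of 25 Epcam/Cdh1 cells held more Y-linked than Xist UMIs and none the reverse, and in the 1 male control sample 2 of 2 did. In female samples Xist UMIs were the more numerous in 23 of 27 control and 10 of 13 mutant cells, and Y-linked UMIs in 1 cell of each genotype.

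The share of Epcam/Cdh1 cells is given per barcode sample. At E8.0 it was 0.817, 0.977 and 1.94% in the controls and 0.999, 1.02 and 1.25% in the mutants. At E9.5, over samples of at least 20 cells, it ran from 0 to 1.22% in 5 controls and from 0 to 1.31% in 6 mutants. The groups overlapped at both stages. At E8.5 the larger control sample held 2 such cells among 2508 (0.0797%) and the mutant sample 1 among 487 (0.205%), too few samples for a comparison.

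Mutants and controls did not differ in this share beyond the spread between samples. The mean was 0.721% ± 0.483 (SD, n = 10) in mutants and 0.610% ± 0.645 (SD, n = 10) in controls, with a difference within stages of 0.0694 percentage points (exact permutation test, two-sided, p = 0.724, adjusted 0.966 over 4 tests of shares). Within E8.0 the difference was -0.154 points, but 0.306 after thinning to 10000 UMIs, which left out shallower cells. The smallest p that 3 against 3 samples allow is 0.1, and without thinning the exact permutation p was 1. Within E9.5 the exact permutation p was 0.602, with labels permuted across the 3 runs. In run 1 at E9.5 the mutant samples (0.411, 0.463 and 1.31%) lay above the controls (0.108 and 0.233%). After thinning to 10000 UMIs they overlapped, at 0.146, 0 and 0.459% against 0.0558 and 0.242%, and the difference over all E9.5 samples was -0.207 points (exact permutation p = 0.208) in place of 0.165. Over both stages of run 1 the genotype difference was 0.170 points (exact permutation p = 0.535). In single samples of E9.5, the limit that a count of 0 allows was 0.493% for 608 control cells and 5.26% for 57 mutant cells.

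Between stages the mean share was 0.547% ± 0.494 (SD, n = 11) at E9.5 and 1.17% ± 0.402 (SD, n = 6) at E8.0, a difference within genotype of -0.618 percentage points (exact permutation test, two-sided, p = 0.0238, adjusted 0.0952 over the 4 tests). Within run 1 alone the difference was -0.685 with an exact permutation p of 0.045. The stricter rule of 5 Epcam and 2 Cdh1 UMIs gave -0.557 (exact permutation p = 0.00319). The unadjusted p rose above 0.05 when cells were thinned to 10000 UMIs first (-0.302, p = 0.0504, exact permutation test), without cells of mixed markers (-0.379, exact permutation p = 0.153), without the Cdh1 requirement (-0.421, exact permutation p = 0.270), and without the control sample Bar29 of E8.0 (-0.455, exact permutation p = 0.0760). Cells of E8.0 were deeper, with medians of 28275 and 25615 UMIs in control and mutant cells outside the rule, against 19932 and 17488 at E9.5, and the part of this depth difference in the result was not tested beyond the thinned value.

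**Figure D2:**
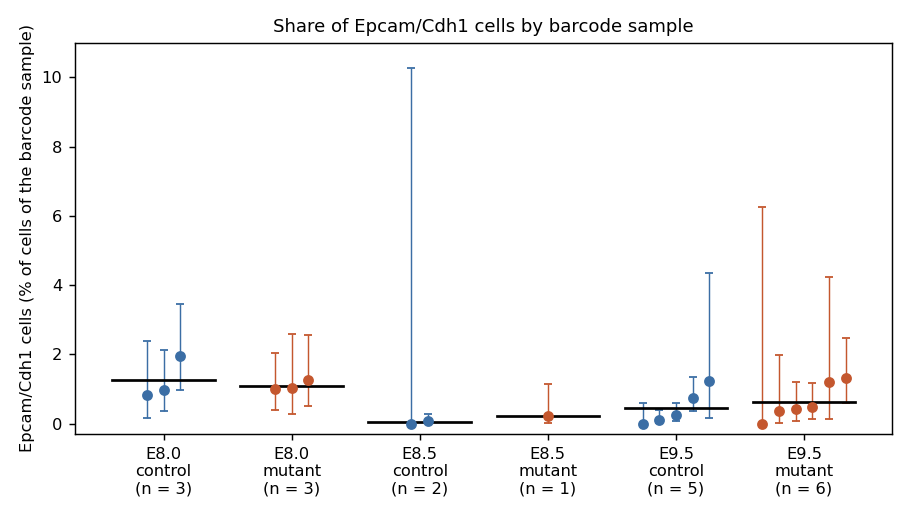
Points are the percentages of Epcam/Cdh1 cells in barcode samples of at least 20 cells with exact binomial 95% intervals, and black bars are means over the samples of each stage and genotype. The 6 samples of E8.0 lie between 0.817 and 1.94%, while samples of E9.5 lie between 0 and 1.31%.

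Wls, the floxed gene, was lower in every mutant than in every control sample outside the rule, while within it the genotypes overlapped. The gene lies on chromosome 3 (GRCm38, 3:159839672-159938664, plus strand), and which of its exons is floxed is not given in the sources used here. Across the 6 mutant samples with at least 3 Epcam/Cdh1 cells, Wls stood at 122 CPM ± 52.7 (SD, n = 6) in these cells, against 9.72 ± 2.20 CPM in all other cells of the same samples. In the 5 control samples it stood at 145 CPM ± 85.5 (SD, n = 5) in these cells and at 51.4 ± 9.48 CPM in the others. Outside the rule the mutant samples thus lay between 6.28 and 12.1 CPM and the controls between 40.3 and 65.3 CPM, with no overlap, whereas in the Epcam/Cdh1 cells mutants (57.5 to 192 CPM) and controls (73.6 to 278 CPM) overlapped.

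Sample by sample, the mutant Epcam/Cdh1 cells held Wls at 192 CPM in Bar25, 160 CPM in Bar27 and 86.6 CPM in Bar28 at E8.0. At E9.5 the mutant values were 150 CPM in Bar19, 57.5 CPM in Bar20 and 85.2 CPM in Bar21. All 6 exceeded the other cells of their own sample, and in each the lower Poisson bound of the Epcam/Cdh1 cells lay above the level of the others. The controls stood at 73.6 CPM in Bar24, 179 CPM in Bar26 and 114 CPM in Bar29 at E8.0, and at 278 CPM in Bar23 and 78.3 CPM in Bar9 at E9.5. All 5 exceeded the other cells of their sample, though for Bar24 the interval, 33.7 to 140 CPM, spanned the 65.3 CPM of the others. These intervals cover counting error only and rest on 5 to 43 Wls UMIs per sample.

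The genotype effect on Wls in Epcam/Cdh1 cells differed from that in the other cells of the same samples by 2.15 on the log2 scale (SE 0.35, adjusted p = 0.00415, edgeR quasi-likelihood test of the interaction, 14374 genes tested). Of all genes tested 0.0139% were called, which is Wls and 1 other. That count of 2 was 58 without Bar20, 15 without Bar29, 7 without Bar19 or Bar26 and 1 without Bar21. DESeq2 called Wls alone (2.21, adjusted p = 0.0151), and the difference stayed between 1.92 and 2.60 when each sample was left out in turn, with the call kept each time. The call was lost when the 11 cells with mixed markers were left out (1.39, adjusted p = 0.225), most of them set apart by Pecam1, which also removed Bar24 and Bar25 for want of cells, and when the share of male cells entered the fit (1.38, adjusted p = 1). Genotype and sex largely go together in these samples and cannot be cleanly told apart at either stage. At E8.0 all mutants were male and only Bar29 among the controls held male cells in number. At E9.5 both controls in the fit were female, and Bar19 and Bar21 among the mutants were male.

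**Figure D3:**
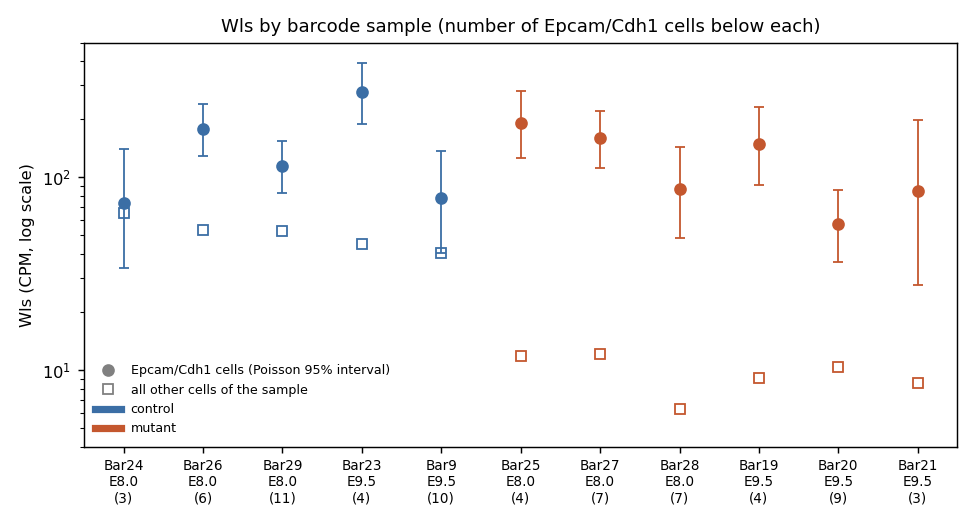
Filled circles are Wls in the Epcam/Cdh1 cells of each barcode sample with Poisson 95% intervals, open squares are all other cells of the same sample, on a log axis of CPM. In the mutant samples the squares lie between 6.28 and 12.1 CPM and the circles between 57.5 and 192 CPM.

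Within the Epcam/Cdh1 cells the genotype difference in Wls was -0.35 on the log2 scale (SE 0.40, edgeR adjusted p = 0.982) over all stages, 0.21 (SE 0.38) at E8.0 and -1.41 (SE 0.57, unadjusted p = 0.0436, adjusted p = 1.00) at E9.5. Bar9 is the only run 3 sample in these fits, so that the run term sets it aside, and at E9.5 the tested control is Bar23 alone against 3 mutants. Alternatives at E9.5 ran from -2.12 with the share of male cells as a term and -1.91 without Bar19 to -0.76 without the run term and 0.35 without Bar23, where genotype and run cannot be told apart. Over all stages the value was -1.27 without cells of mixed markers (unadjusted p = 0.0191, edgeR adjusted p = 1.00), -1.12 with the share of male cells as a term and -0.76 under the stricter rule, but 0.22 without Bar23 and 0.00407 without the Cdh1 requirement. Without that requirement the E9.5 value, over 9 samples, was 0.10. After thinning to 5000 UMIs, 14 of 40 control cells (35.0%, exact binomial 95% interval 20.6 to 51.7%) and 13 of 37 mutant cells (35.1%, 20.2 to 52.5%) held a Wls UMI, with 1 shallower mutant cell left out. These intervals cover counting error over pooled cells only, and single samples ran from 18.2 to 75%. The other cells did so at 19.4% in controls and 3.66% in mutants. Blood cells, which served as a background type with median depths of 28816 and 25413 UMIs, did so at 1.60 and 0.855%. Without thinning, the shares were 77.5% of control and 63.2% of mutant Epcam/Cdh1 cells, at median depths of 26816 and 25470.5 UMIs, 49.4 and 8.90% of the other cells, and 11.2 and 3.58% of blood cells.

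By samples, the thinned share of Epcam/Cdh1 cells with a Wls UMI was 42.9% ± 22.0 (SD, n = 6) in mutants and 39.6% ± 18.9 (SD, n = 5) in controls, a difference within stages of 3.30 percentage points (exact permutation test, two-sided, p = 0.805). The excess over the other cells was 39.0 points in mutants and 18.6 in controls, and the difference of these, 20.4 points, did not pass at 5000 UMIs (exact permutation p = 0.175). It passed at 10000 UMIs (22.9 points, exact permutation p = 0.025) and without thinning (31.4 points, exact permutation p = 0.005, the smallest that these samples allow). Without the cells of mixed markers it was -4.16 points (exact permutation p = 0.85), under the stricter rule 3.54 points (exact permutation p = 0.833) and without the Cdh1 requirement 5.07 points (exact permutation p = 0.661).

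Among the clusters, pooled Wls was highest in the surface ectoderm-like cluster 3, at 242 CPM, and in cluster 2, at 239 CPM. It was 93.5 CPM in the gut endoderm-like cluster 5, 91.9 CPM in cluster 4, 80.1 CPM in the yolk sac-like cluster 6 and 34.4 CPM in cluster 1, where 10 of 17 cells held none. Every cluster held mutant cells with Wls UMIs. Mutant cells stood above control cells in cluster 1, at 44.8 against 13.6 CPM, and in cluster 2, at 309 against 192 CPM, and below them in the other clusters, with 73.3 against 95.4 CPM in cluster 4. In cluster 6, 4 of 5 mutant cells and 5 of 6 control cells held Wls, at 70.5 and 89.9 CPM. In cluster 3, 6 of 7 mutant and 6 of 6 control cells held it, at 157 CPM (Poisson 95% interval 102 to 229) and 327 CPM (246 to 427). In cluster 5 the values were 89.5 CPM in 10 mutant cells and 111 CPM in 2 control cells. These are pools of few cells from unequal samples, with no test.

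**Figure D4:**
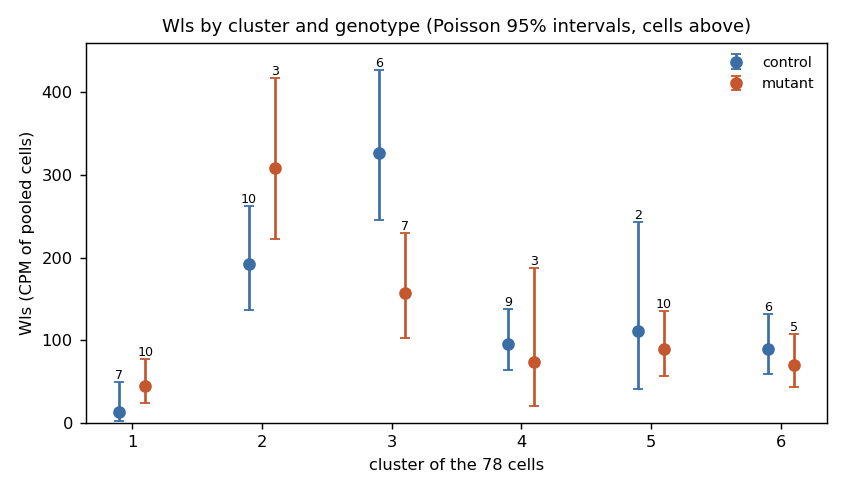
Points are Wls CPM of the pooled cells of each cluster and genotype with Poisson 95% intervals, with the number of cells above each. Clusters 2 and 3 stand highest, and mutant cells range from 44.8 CPM in cluster 1 to 309 CPM in cluster 2.

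Of the Wnt ligands that Wls carries, Wnt6 (GRCm38, 1:74771892-74785322, plus strand) stood at 139 CPM in these cells against 5.62 CPM elsewhere, in 34.6% of the cells. It was found in all 13 cells of cluster 3, at 4 to 39 UMIs, in 2 of 12 cells of cluster 5 and in none of cluster 6. In cluster 2 it was found in 6 of 13 cells and was also raised against the other Epcam/Cdh1 cells. By sample it ran from 0 (Bar24) to 287 CPM (Bar23) in controls and from 5.78 (Bar28) to 419 CPM (Bar19) in mutants, so that the genotypes overlapped. Wnt4 stood at 44.4 against 15.1 CPM and was also highest in cluster 3 (133 CPM, 10 of 13 cells). Wnt3, Wnt7a and Wnt7b had 18, 14 and 12 UMIs in all 78 cells, of which cluster 3 held 5, 6 and 5 of the 11, 8 and 9 cells that had any. Wnt5b (86.8 CPM) and Wnt5a (66.8 CPM) were highest in the gut endoderm-like cluster 5. Wnt2, a ligand of lateral mesoderm, went the other way, at 2.99 CPM against 58.0 CPM in the other cells. Wnt2b and Wnt8a had no UMI in these cells.

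Genes that respond to Wnt were unevenly spread. Sp5 reached 257 CPM in cluster 5, in 8 of 12 cells, and stayed at 3.02 CPM in cluster 3. Axin2, a feedback inhibitor of the pathway, stood at 76.8 CPM in cluster 5, 54.3 CPM in cluster 3 and 3.41 CPM in cluster 6, and Lef1, the transcription factor, was not found in cluster 6. Summed over all 78 cells Axin2 was at 27.3 CPM against 22.9 CPM elsewhere and Sp5 at 38.9 against 12.9 CPM. Lef1 was at 20.1 against 40.6 CPM and Nkd1, another feedback inhibitor, at 30.7 against 47.3 CPM. The mean log2 ratios over the 11 samples were -0.02 for Sp5, 0.03 for Axin2, -1.23 for Lef1 and -1.41 for Nkd1. The higher sum of Sp5 was thus not seen in the mean over samples.

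In the reported edgeR fits no gene passed the test of genotype within the Epcam/Cdh1 cells, while other settings and tools called some. Over all stages 0 of 2962 genes were called (0%) by edgeR at an adjusted p under 0.05, with 148 at an unadjusted p under 0.05, and DESeq2 called 0. At E8.0 edgeR called 0 of 3695 (0%), with 213 unadjusted, and DESeq2 called 2. Without the mutant sample Bar27 edgeR called 62 at E8.0. At E9.5 edgeR called 0 of 2922 (0%), with 67 unadjusted, and DESeq2 0, while 19 were called without Bar20, 2 without Bar23 and 36 with the share of male cells as a term. On simulated counts edgeR recovered 98% of genes changed by 2 on the log2 scale for all stages and 85% at E8.0, but 7% at E9.5. Of genes changed by 1 it recovered 45%, 25% and 2%, with 10, 3 and 0 false calls. The count at E9.5, where the run term leaves 1 control sample, thus says little. The simulation drew all samples from 1 mean profile, without the differences in cluster mix between real samples. Recovery under such a mix was not tested. Few marker genes reached the filter on low counts: of the 10 gut endoderm genes none entered the fit over all stages, of the 6 yolk sac genes 5 did, and of the 20 general epithelial genes 9.

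The lists give the direction of what was measured, without a call. Among low-oxygen genes, those induced when oxygen is short, 5 of 18 entered the fit over all stages, 4 with positive and 1 with negative values and 0 called, with a median of 0.69 against 0.02 for all genes tested. Slc2a1, the glucose transporter of embryonic tissues, was at 255 CPM (Bar9) and 269 CPM (Bar23) in the E9.5 controls. It was at 1460 CPM (Bar19), 670 CPM (Bar20) and 733 CPM (Bar21) in the mutants. Bar9 is of run 3 and the others are of run 1, and how many genes differ in this way between so few samples was not counted. The other cells of these samples ran from 124 to 159 CPM in controls and from 344 to 445 CPM in mutants. At E8.0 Slc2a1 was at 483, 579 and 608 CPM in controls and 746, 1062 and 1265 CPM in mutants. Over all stages the log2 value was 1.19 (SE 0.31, unadjusted p = 0.00233, edgeR adjusted p = 0.937). In the test against the other cells, 0 of 17 low-oxygen genes were called. Of these 17, 8 had positive and 9 had negative values, with a median of -0.07. The value for Slc2a1 in that test was 0.65 (SE 0.22, edgeR adjusted p = 1).

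Krt19, a simple keratin, stood at 98.6 CPM in control and 253 CPM in mutant samples on average (log2 value 1.79, SE 0.76, edgeR adjusted p = 0.937), with samples from 7.97 to 260 CPM in controls and from 35.6 to 433 CPM in mutants. It also differed between clusters, at 419 CPM in cluster 1 and 314 CPM in cluster 5 but 25.9 CPM in cluster 4 and 15.3 CPM in cluster 6. Cluster 5 held 10 mutant and 2 control cells and cluster 4 held 3 and 9, and the part of this cluster mix in any difference between genotypes was not tested. Of the 12 cell cycle genes all entered the fit over all stages, 5 with positive and 7 with negative values and none called. Of the 19 Wnt ligand and secretion genes 2 entered, of the 12 Wnt target genes 2, of the 11 Hedgehog genes 2 and of the 16 BMP, TGF-beta and Nodal genes 3, with none called. None was called either among the tested 3 of 19 FGF genes, 4 of 15 retinoic acid genes, 7 of 22 adhesion and polarity genes, 3 of 7 heat shock genes and 0 of 28 Hox genes.

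Between E9.5 and E8.0 edgeR called 0 of 2962 genes (0%), with 241 at an unadjusted p under 0.05, and DESeq2 called 11. This fit had genotype but no run term, so that Bar9 of run 3 entered the E9.5 side unadjusted, and run 1 alone gave 1 call, as did leaving out Bar9. Without Bar20 there were 14. Of the 5 yolk sac genes tested all 5 had negative values, with a median of -1.07, and of the 6 hepatic or secretory genes all 6, with a median of -1.37, against 0.00 for all genes. None was called. In the fits within single stages, 6 of 6 yolk sac and 6 of 8 hepatic or secretory genes passed the count filter at E8.0. At E9.5 only 1 and 2 did. The filter thus favoured genes high at E8.0, and these genes were raised together in the yolk sac-like cluster 6. Their shared negative sign is therefore not separate evidence of a stage difference. The yolk sac-like cluster had 8 cells at E8.0 and 3 at E9.5.

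**Figure D5:**
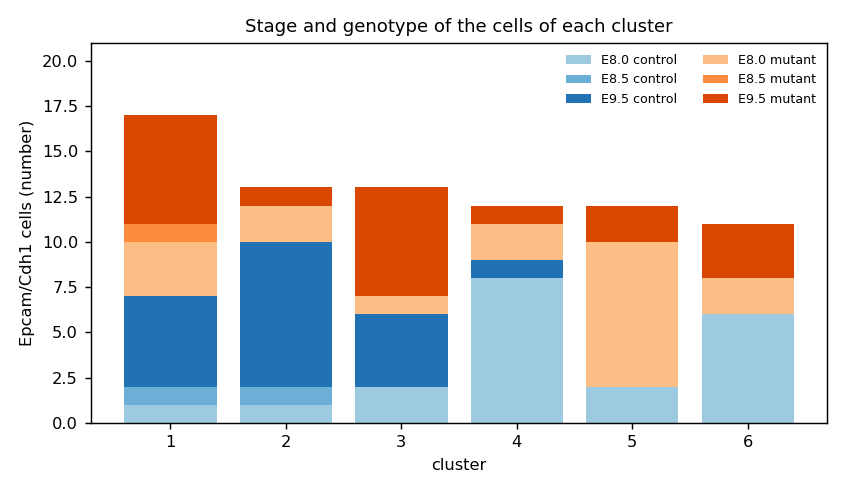
Each stacked bar is 1 cluster, with its height the number of Epcam/Cdh1 cells and its colours their stage and genotype. Clusters 4, 5 and 6 hold mostly E8.0 cells, and clusters 1, 2 and 3 mostly E9.5 cells.

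Beside Wls, the test against the other cells called Ankrd1 (GRCm38, 19:36111961-36120099, minus strand), a gene of cardiac muscle, at -3.45 (SE 0.65, edgeR adjusted p = 0.0311). All 109 of its UMIs in Bar9 came from 1 control cell, which also held 212 UMIs of Tnnt2 and Myl7, and Bar9 stood at 711 CPM while the other control samples stood between 0 and 12.8 CPM. Without Bar9 the value was -0.97 (adjusted p = 1), and without cells of mixed markers it was 0.65 (adjusted p = 1).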

How the data were processed

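The deposited matrix holds raw UMI counts per gene and cell, made by the authors with kallisto and bustools 0.46.1 on GRCm38, per the submitters' processing notes, which also name Cell Ranger. The cell filters are not given in the sources used here. Run, barcode, stage and genotype of each cell came from the authors' deposited per-cell table. The membership rule, the gene lists and the tests were chosen with earlier results of these data known. Counts were summed per barcode sample and compared by the quasi-likelihood test of edgeR 4.0.16 (R 4.3.3), after its filterByExpr filter and TMM scaling, with Benjamini-Hochberg adjustment and a threshold of 0.05, with stage, and run where it could be estimated, as terms for genotype, genotype alone as a term for stage, and for the test against the other cells with the barcode sample as a block. DESeq2 1.42.0 was the alternative. At least 10 cells per sample had been planned, but only 2 samples, both control, reached that, so at least 3 was used, set after the cell numbers were seen. Samples of at least 20 cells entered the tests of shares, which were exact permutations within stage or genotype. Clusters came from scanpy 1.11.5 on 1000 variable genes, with 15 components and 8 neighbours. Of 4 resolutions looked at, resolution 1 was chosen after seeing the data. A cluster was named only where at least 3 markers of a list were detected and no other class led its 10 leading genes. Named genes were the list members, the leading genes by ratio and all called genes. Leading genes had to be found in at least 25% of the cells of the group or cluster concerned. Doublets were scored with Scrublet and not removed. Gene positions came from GENCODE M21. On simulated counts of 14374 genes, edgeR recovered 39% of those changed by 2 on the log2 scale in the test against the other cells. Of those changed by 1 it recovered 6%.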

Additional observations from a re-analysis of the deposited data

Results flagged for a closer look

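Of 8 groups of samples examined for a sample far from the others, 1 had one: Ankrd1 in the Epcam/Cdh1 cells of the control sample Bar9, at 711 CPM against 12.8 CPM or less in the other 4 controls, with all 109 UMIs in 1 cell that held 19930 UMIs in all and 266 of the cardiac list. Chance puts about 1 in 20 groups on such a list. That rate does not hold for Ankrd1, which was examined as a gene already called in these data.

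The genotype effect in Epcam/Cdh1 cells differed from that in the other cells of the same samples for Wls, by 2.15 on the log2 scale, and for Ankrd1, by -3.45, both by edgeR's test of the interaction.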

How the results depend on the processing

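The difference in Wls between Epcam/Cdh1 cells and other cells kept its direction in all 21 alternatives and its call in 19. It was 1.39 without cells of mixed markers and 1.38 with the male share as a term. These alternatives share most of their samples, 11 of them leave out 1 sample each, and run 1 alone is the same fit as that without Bar9. Within the Epcam/Cdh1 cells the Wls value for genotype was 0.00407 without the Cdh1 requirement, an alternative added after seeing the data, 0.22 without Bar23 (range -0.55 to 0.22 over samples left out), -1.27 without mixed markers, -1.12 with the male share and -0.76 under the stricter rule. The value for Ankrd1 was 0.80 under the stricter rule of 5 Epcam and 2 Cdh1 UMIs and 0.65 without mixed markers, and -4.30 to -0.97 over samples left out.

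Without the filter on low counts the genes called for genotype were 48 over all stages, 109 at E8.0 and 39 at E9.5, for stage 178, and in the test against other cells 19. DESeq2 called 2 at E8.0, 11 for stage and 1 against other cells. With the male share the counts were 36 at E9.5, 1 for stage and 6 against other cells. Without the Cdh1 requirement they were 9 for stage and 1 against other cells. Run 1 alone gave 1 for stage. Against other cells, at least 5 cells per sample gave 30, the stricter rule 14 and no mixed markers 6. Leaving out samples gave 0 to 62 at E8.0 (62 without Bar27), 0 to 19 at E9.5 (19 without Bar20, 2 without Bar23), 0 to 14 for stage (14 without Bar20) and 1 to 58 against other cells (58 without Bar20, 15 without Bar29, 7 without Bar19 or Bar26, 5 without Bar23 or Bar28). The cause was not tested.

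The genotype difference in the share of cells was -0.0398 points under the stricter rule and ran from -0.00827 to 0.172 over samples left out. Thinning first, which left out cells under 10000 UMIs, changed the sign at both stages. It gave 0.306 in place of -0.154 within E8.0 and -0.207 in place of 0.165 within E9.5. The stage difference was -0.302 after thinning, -0.379 without mixed markers, -0.421 without the Cdh1 requirement, and -0.700 to -0.455 over samples left out. The genotype difference in the share with a Wls UMI was -4.22 points at 10000 UMIs, -10.0 without thinning, -12.9 under the stricter rule, -20.5 without mixed markers, -10.9 without the Cdh1 requirement, and -4.58 to 9.98 over samples left out. Its excess over other cells was 22.9 at 10000 UMIs, 31.4 without thinning, 3.54 under the stricter rule, 5.07 without the Cdh1 requirement and -4.16 without mixed markers, and 12.5 to 26.9 over samples left out.

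Fits on samples of at least 10 or 20 cells could not be made, nor at E9.5 those on at least 5 cells or the stricter rule. No paired analysis was possible because the barcodes carry no number shared between genotypes. The number of cells limits precision, since 2 of the 22 samples hold 10 or more of these cells.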
